A study of Drosophila melanogaster with 37 samples.

Results

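The X chromosome of Drosophila melanogaster carried 1043 expressed genes that were known in the gene tables only by a CG number, the running identifier given to a gene predicted from the genome before anything is known of its role. They were chosen by 3 conditions: a place on X, a name made of CG and digits, and a mean of at least 1 TPM over 12 libraries of polyadenylated RNA. TPM is the share of a library's transcripts that a gene takes, corrected for gene length, in units that add up to 1000000 for a library. Of 17559 annotated genes, 2647 were on X, 1204 of these had such a name, and 161 of the 1204 fell below the level. The same name and level were met by 3869 of 4690 genes on the autosomal arms 2L, 3L and 3R, which served as the comparison set. A further 898 X-linked genes of that level had a proper name. Differences between groups were tested over all 12882 genes with a mean of at least 1 TPM.

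The libraries came from wild-type flies of the isogenic Canton-S strain, young adults dissected early on the second day after eclosion, and all 6 groups shared this genotype and carried no treatment. The groups were female head, male head, female body, male body, ovary and testis, with 2 libraries each. By the study's methods the testis sample held the whole inner reproductive tract of the male, with seminal vesicle, accessory gland and ejaculatory duct. Neither the labels nor the methods state whether the body samples kept the gonads, and levels of gonad markers in bodies are given below. Nothing in the labels says whether replicates came from separate cultures, so p-values measure the spread between these libraries only. In whole tissues fewer cells of a type and less RNA per cell cannot be told apart.

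Females of the fly have a pair of X chromosomes and males a single one. In somatic cells of the male the MSL complex, guided by the noncoding RNAs roX1 and roX2, raises transcription of the single X towards the output of the female pair. The complex is known from somatic cells, and genes with a role in spermatogenesis are known to be rarer on X than on autosomes, while genes used in the ovary are common there.

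The later RefSeq annotation held 1032 of the 1043 genes by FlyBase identifier. It listed 1029 of them as protein coding and 3 as another kind, among these the long noncoding RNA CG32553. It gave a proper name to 190 of them and left 842 under the CG number, and 1023 had the same start and end in both annotations. The other 11 genes were not matched.

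5 promoters are shown because they hold the core promoter letters that are compared further below between genes of the ovary and of the testis. Each runs 5′ to 3′ on the strand of the gene from 150 bases before the annotated start to 30 bases after it, in the dm6 assembly as given by RefSeq. Capitals mark TATCGATA (the DNA replication-related element, bound by DREF), GGTCACAC (the core of Motif 1, bound by M1BP), CAGCTG (an E-box) and TATAAA (the TATA box). The first 4 genes were higher in ovary than in testis and CG32548 was higher in testis.
CG11398, chrX:1215127-1215306, minus strand: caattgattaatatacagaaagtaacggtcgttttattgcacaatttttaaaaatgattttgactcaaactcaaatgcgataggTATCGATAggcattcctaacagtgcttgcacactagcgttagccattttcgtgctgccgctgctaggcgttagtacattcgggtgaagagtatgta
CG34422, chrX:18843513-18843692, plus strand: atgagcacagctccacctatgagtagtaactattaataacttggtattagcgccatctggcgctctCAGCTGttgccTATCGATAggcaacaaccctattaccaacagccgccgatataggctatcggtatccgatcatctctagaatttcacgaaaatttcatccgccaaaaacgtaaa
CG7326, chrX:18863747-18863926, minus strand: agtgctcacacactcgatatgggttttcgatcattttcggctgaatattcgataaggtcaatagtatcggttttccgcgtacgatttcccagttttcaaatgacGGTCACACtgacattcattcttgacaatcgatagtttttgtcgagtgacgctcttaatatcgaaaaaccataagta
CG15571, chrX:4217365-4217544, minus strand: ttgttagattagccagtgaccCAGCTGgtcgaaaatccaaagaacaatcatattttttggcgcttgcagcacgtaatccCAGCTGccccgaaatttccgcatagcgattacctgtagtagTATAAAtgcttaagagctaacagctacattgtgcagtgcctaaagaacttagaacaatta
CG32548, chrX:18440552-18440731, minus strand: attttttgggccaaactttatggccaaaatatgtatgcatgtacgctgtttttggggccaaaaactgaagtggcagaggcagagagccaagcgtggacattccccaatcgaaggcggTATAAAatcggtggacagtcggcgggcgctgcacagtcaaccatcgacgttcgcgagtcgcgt
In CG11398 the element began 66 bases before the start, and in CG34422 it began 73 bases before it with an E-box at 84 bases. In CG7326 the Motif 1 core began 46 bases before the start. The TATA box of CG15571 began 30 bases before the start and that of CG32548 began 33 bases before it, the distance at which this box is known to work.

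Levels of the unnamed X-linked genes were modest. Their mean over the 12 libraries had a median of 13 TPM with quartiles of 6.36 and 27.5, against 15.4 TPM for the unnamed autosomal genes and 18.9 TPM for the named X-linked genes. Only 40 of them reached 100 TPM, and the highest was CG2233 with 585 TPM. Together they made up between 1.48% of all TPM in female head replicate 1 and 4.19% in testis replicate 2. A mean of at least 1 TPM in every group was held by 523 of them (50.1%), against 47.0% of the unnamed autosomal and 70.0% of the named X-linked genes. The group of the highest mean was ovary for 380 genes (36.4%), testis for 327 (31.4%), male head for 133, male body for 98, female head for 54 and female body for 51. Of the named X-linked genes 10.6% had their highest mean in testis, and of the unnamed autosomal genes 36.5%. A gene that met the level through a single tissue had to differ between tissues, so counts of members with a difference are a description and are set beside the same counts over other genes.

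The threshold on level set the lower edge of the group. CG2111 and CG1494 lay just inside it, with means of 1.00 and 1.01 TPM, and CG12788 (0.996 TPM) and CG42577 (0.994 TPM) lay just outside. CG2111 was measured at 1.99 and 6.19 TPM in testis, at 1.00 and 2.76 TPM in male body and at 0.0645 TPM or less in the other 8 libraries. CG42577, outside, had 5.6 and 3.71 TPM in testis and 1.48 and 0.756 TPM in male body.

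Most marker lists were highest in the tissue they mark, with exceptions. The summed level of 7 spermatocyte and spermatid genes was 5300 and 4380 TPM in testis, 1450 and 1560 TPM in male body, and between 2.29 and 55.7 TPM in the other 8 libraries. That of 4 germline genes was 709 and 1790 TPM in ovary and 400.0 and 1100 TPM in female body, against 1.59 to 12.2 TPM elsewhere. The neuronal genes summed to between 1100 and 1650 TPM in heads and to at most 97.4 TPM in the other groups. The germline list was thus low in testis, at 9.07 and 12.2 TPM. The fat body list followed the female samples, with 8410 and 13600 TPM in ovary, 6670 and 17000 TPM in female body, 6300 and 13100 TPM in female head, and at most 191 TPM in male samples. The accessory gland list was highest in the testis libraries, at 11000 and 12900 TPM, against 3560 and 4920 TPM in male body and at most 116 TPM elsewhere. The muscle list stood at 1690 to 2650 TPM in heads and 2040 to 7970 TPM in bodies, and at 143 to 296 TPM in gonads. The part of these cells in the results was not tested. Male libraries were marked by roX1, with 313 and 589 TPM in male head against 2.43 and 2.75 TPM in female head. The mitochondrial genes took from 16.6% to 60.5% of TPM in the replicate 1 libraries, from 1.06% to 3.31% in replicate 2 of bodies and gonads, and 43.7% and 41.7% in replicate 2 of the heads. Levels of other genes moved with this share within a group, and its part in the results below was not tested beyond the fit without mitochondrial genes.

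Within each library the median of the unnamed X-linked genes was compared with that of the unnamed autosomal genes on the scale of log2(TPM + 1). In heads the X-linked median was slightly higher, by 0.22 and 0.24 in females and by 0.20 and 0.31 in males. In female body the gap was −0.01 and 0.28. In male body it was negative, −0.47 and −0.40, and in testis more so, −0.59 and −0.54. In ovary it was positive, 0.41 and 1.35. As group means these were 0.23 ± 0.01 in female head, 0.26 ± 0.08 in male head, 0.13 ± 0.20 in female body, −0.44 ± 0.05 in male body, 0.88 ± 0.66 in ovary and −0.57 ± 0.03 in testis (SD, n = 2). The 4 libraries of male body and testis lay below 0, the 4 of heads and the 2 of ovary above it, and the replicates of ovary differed widely. The ovary gap was one of the middle of the distribution: at the upper quartile it was only 0.07 and 0.17. The testis gap was largest among highly expressed genes, −0.81 and −0.69 at the upper quartile against −0.36 and −0.33 at the lower. No test was made on this score.

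**Figure D1:**
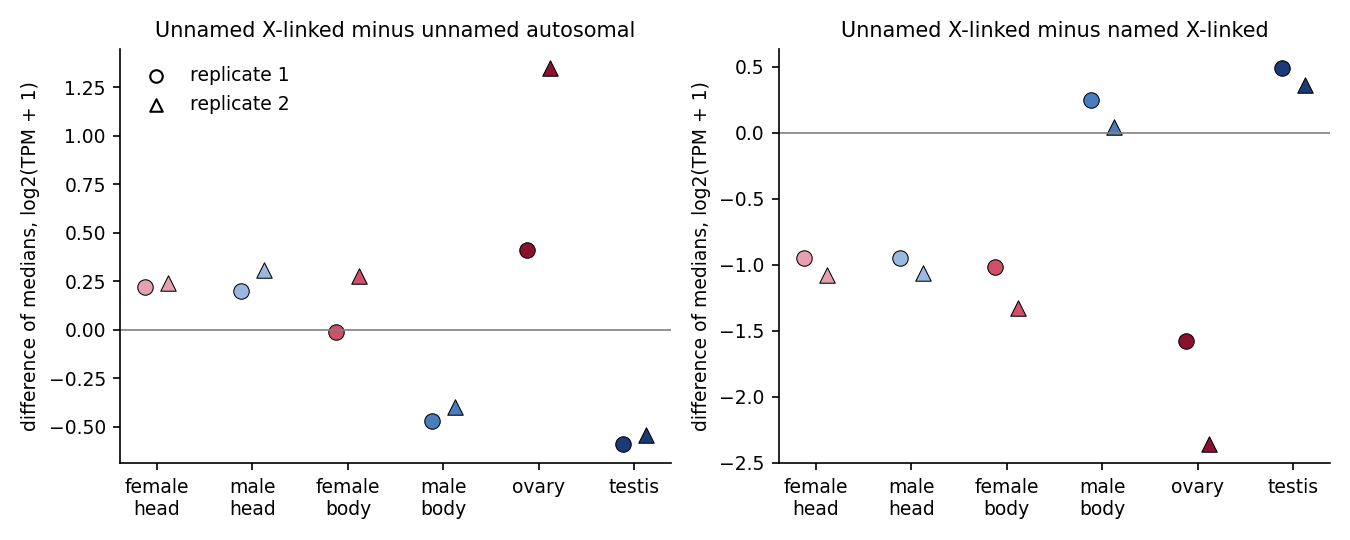
Left, the median of 1043 unnamed X-linked genes minus that of 3869 unnamed genes of 2L, 3L and 3R in each of the 12 libraries, in units of log2(TPM + 1). Right, the same minus the median of 898 named X-linked genes; circles are replicate 1 and triangles replicate 2, and male body (−0.47 and −0.40) and testis (−0.59 and −0.54) lie below 0 on the left and above 0 on the right.

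Against the named genes of the same chromosome male body and testis lay above 0 and the other groups below it. The median of the unnamed X-linked genes differed from that of the named X-linked genes by −1.08 to −0.95 in heads, by −1.02 and −1.33 in female body, and by −1.58 and −2.36 in ovary. In male body it lay above it by 0.25 and 0.04, and in testis by 0.49 and 0.36. The unnamed X-linked genes therefore stood between the named genes of X and the unnamed genes of the autosomes in every library except female body replicate 1. In that library they lay just below the unnamed autosomal genes. In male body and testis the unnamed autosomal genes were the highest of these sets, and in the other groups the named X-linked genes were.

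Between female and male heads almost no gene was called. Of the unnamed X-linked genes 0 were called higher in females and 1 higher in males, against 0.0388% and 0.0543% of all genes tested in these directions. At an unadjusted p under 0.05 there were 15, and 157 over all genes, or 43 and 385 with the replicate block. Each of these counts is under 0.05 of its genes tested, the share expected where nothing differs. The test was thus cautious between heads, and few calls do not show that the heads were alike. The median difference was −0.10 on the log2 scale, −0.09 for the unnamed autosomal genes and −0.12 over all genes. The single call was CG32553, now annotated as a noncoding RNA. It was measured at 2.24 and 2.50 TPM in female heads and at 7.34 and 10.6 TPM in male heads, and was listed at 0 in all 8 libraries of bodies and gonads. The heads did not overlap, and the difference was −1.54 ± 0.18 (adjusted p = 0.0091). It missed the threshold with a pseudocount of 0.1, in a fit of the 4 head libraries alone, and without female head replicate 1 or 2. Without male head replicate 2 or ovary replicate 2 there were 2 genes higher in males.

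Between the gonads the unnamed X-linked genes split about evenly. There were 324 higher in ovary (31.1%) and 331 higher in testis (31.7%), while 29.5% and 30.5% of all genes tested were called in these directions. With the replicate number as a block they were 434 (41.6%) and 359 (34.4%), against 41.0% and 34.7% of all genes. Both shares were thus near those of all genes in either fit. The unnamed autosomal genes leaned to testis, with 881 (22.8%) higher in ovary and 1512 (39.1%) higher in testis, and the named X-linked genes leaned to ovary, with 440 (49.0%) and 80 (8.91%). The median difference was 0.13 for the unnamed X-linked, −0.35 for the unnamed autosomal, 1.59 for the named X-linked and 0.07 for all genes. In the 4 pairings of an ovary with a testis library the median of the unnamed X-linked genes exceeded that of the unnamed autosomal genes by 0.41 to 0.64. Differences of at least 4-fold were reached by 224 of the 324 ovary calls and 297 of the 331 testis calls, and over all genes by 2578 of 3805 and 3339 of 3933. The sex difference of the gonads was itself different from that of the heads in 244 genes towards the ovary and 306 towards the testis. These were 23.4% and 29.3%, against 21.7% and 26.8% of all genes. With the block they were 39.4% and 32.9%, against 39.1% and 30.9% of all genes.

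These splits depended on how libraries were scaled. Scaling by the median of ratios moved the median difference of all genes from 0.07 to −0.67 between gonads, from −0.01 to −0.74 between bodies and from 0.48 to −0.01 between ovary and female head. Under it 236 unnamed X-linked genes were higher in ovary and 491 in testis, so that ovary calls were 32.5% of the calls in place of 49.5%. Relative to all genes, the median of the unnamed X-linked genes stayed close to that of all genes, 0.06 above it in the deposited TPM and 0.14 above it after rescaling. The ovary count was 205 without ovary replicate 2 and 194 without testis replicate 1. The count of genes that differed more towards the ovary in gonads than in heads was 411 with the replicate number as a block, 388 without the mitochondrial genes, and 149, 157 and 162 without testis replicate 1, male head replicate 2 and ovary replicate 2. Under the median of ratios these differences numbered 196 towards the ovary and 467 towards the testis, 29.6% of calls towards the ovary in place of 44.4%.

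**Figure D2:**
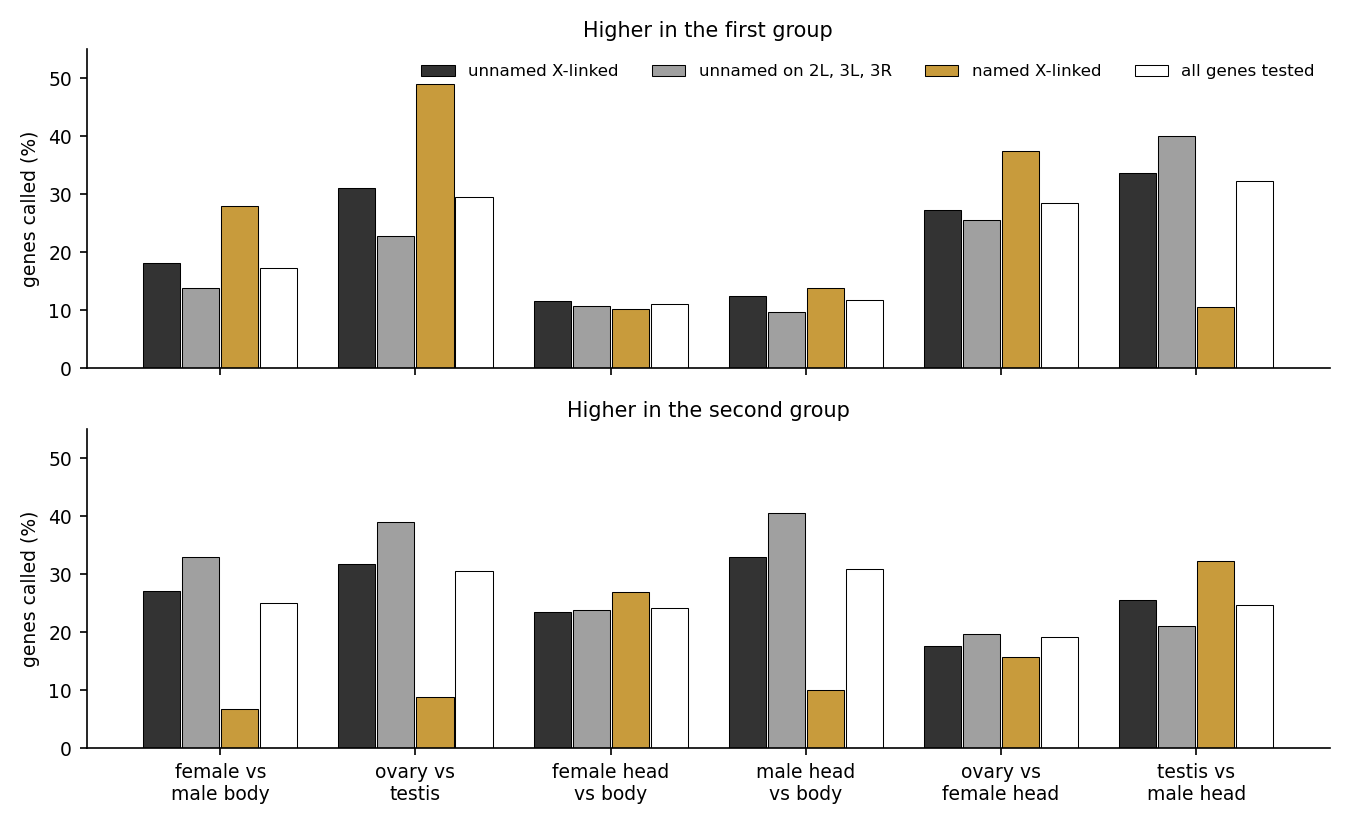
Percentage of genes called (limma adjusted p under 0.05) in 6 comparisons, for unnamed X-linked, unnamed autosomal, named X-linked and all tested genes. The upper panel counts genes higher in the first group and the lower panel those higher in the second; in ovary against testis the unnamed X-linked genes stand at 31.1% and 31.7%, the named X-linked genes at 49.0% and 8.91%.

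The genes that led in testis were also high in male body and low in the other groups. CG1394 was measured at 1010 and 1160 TPM in testis and at 293 and 432 TPM in male body. It had 10.5 and 2.32 TPM in ovary, 4.51 and 0.727 TPM in female body, and at most 1.91 TPM in heads. Testis and ovary did not overlap, with a log2 difference of −7.45 ± 0.71 (adjusted p = 7.6e-06), and CG1394 was the highest unnamed X-linked gene of the testis. CG1324 followed with 880 and 822 TPM in testis against 9.56 and 1.65 TPM in ovary. CG15198 had 755 and 799 TPM in testis against 8.07 and 2.40 TPM in ovary, and CG32548, whose promoter is printed above, had 583 and 803 TPM against 5.56 and 2.06 TPM. None of these genes carries a name in the later annotation. CG15892 showed the largest difference, with 263 and 314 TPM in testis and 0.844 and 0.0899 TPM in ovary (−7.67 ± 0.38, adjusted p = 1.8e-07). CG15208 had 159 and 194 TPM in testis, was listed at 0 in ovary replicate 1 and had 0.441 TPM in ovary replicate 2. CG15577 (−7.28 ± 0.65), CG12470 (−7.09 ± 0.71) and CG1999 (−7.12 ± 0.59) differed to a like degree. CG10970 had the largest share of its level in testis, with 25.1 and 23.8 TPM there, 7.33 and 2.83 TPM in male body and at most 0.576 TPM in the other 8 libraries. CG10970, CG12470, CG1999, CG15198, CG15892 and CG32548 overlap other annotated genes, and strand was not stated for these libraries, so reads of the partners could not be told apart. The differences were computed on log2(TPM + 1), which understates those of genes near 0 in one group.

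Testis genes were also seen at a low level in tissues of the female, more in replicate 1. Over the testis genes with at least 5 TPM in testis, the median level in ovary was 1.24% of that in testis for replicate 1 and 0.286% for replicate 2. In female body it was 0.56% and 0.101%. The summed spermatocyte and spermatid markers stood at 1.05% and 0.292% of testis in ovary and at 0.428% and 0.0847% in female body. Whether RNA of the male tissue reached these libraries was not tested.

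The leading genes of the ovary were as sharply divided. CG11381 was measured at 186 and 462 TPM in ovary and at 165 and 429 TPM in female body, against 0.631 and 0.423 TPM in testis and 0.506 to 1.40 TPM in heads. The log2 difference of ovary and testis was 7.60 ± 0.55 (adjusted p = 8.7e-07), and the groups did not overlap. CG11674 had 199 and 252 TPM in ovary against 0.487 TPM in testis replicate 1 and a listed 0 in replicate 2, and it overlaps l(1)G0007. CG32642 had 113 and 360 TPM against 0.214 and 0.217 TPM. CG15571, with the TATA box shown above, had 69.8 and 95.1 TPM in ovary and 70.6 and 95.1 TPM in female body, and at most 0.543 TPM elsewhere (6.10 ± 0.30, adjusted p = 1.8e-07). CG6927 (5.78 ± 0.47) and CG4586 (5.52 ± 0.45) completed the 6 largest.

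The highest levels in ovary belonged to CG43134, CG7033 and CG45089. CG43134 had 425 and 561 TPM in ovary, 537 and 471 TPM in female body, 13.4 to 20.8 TPM in testis and male body and 1.23 to 3.95 TPM in heads. CG7033, now named CCT2, encodes a subunit of the cytosolic chaperonin that folds actin and tubulin. It had 286 and 584 TPM in ovary, 19.2 and 42.6 TPM in testis and 16.3 to 31.2 TPM in heads (3.79 ± 0.67 between gonads, adjusted p = 0.00079). CG45089 stood at 408 and 388 TPM in ovary and at 143 and 107 TPM in testis, and the heads and bodies at 304 to 625 TPM. It has the same start, end and strand as CG18624, a respiratory chain gene counted further below. CG18624 was listed at 46.9 and 21.9 TPM in ovary, and how reads were divided between both entries is unknown.

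**Figure D3:**
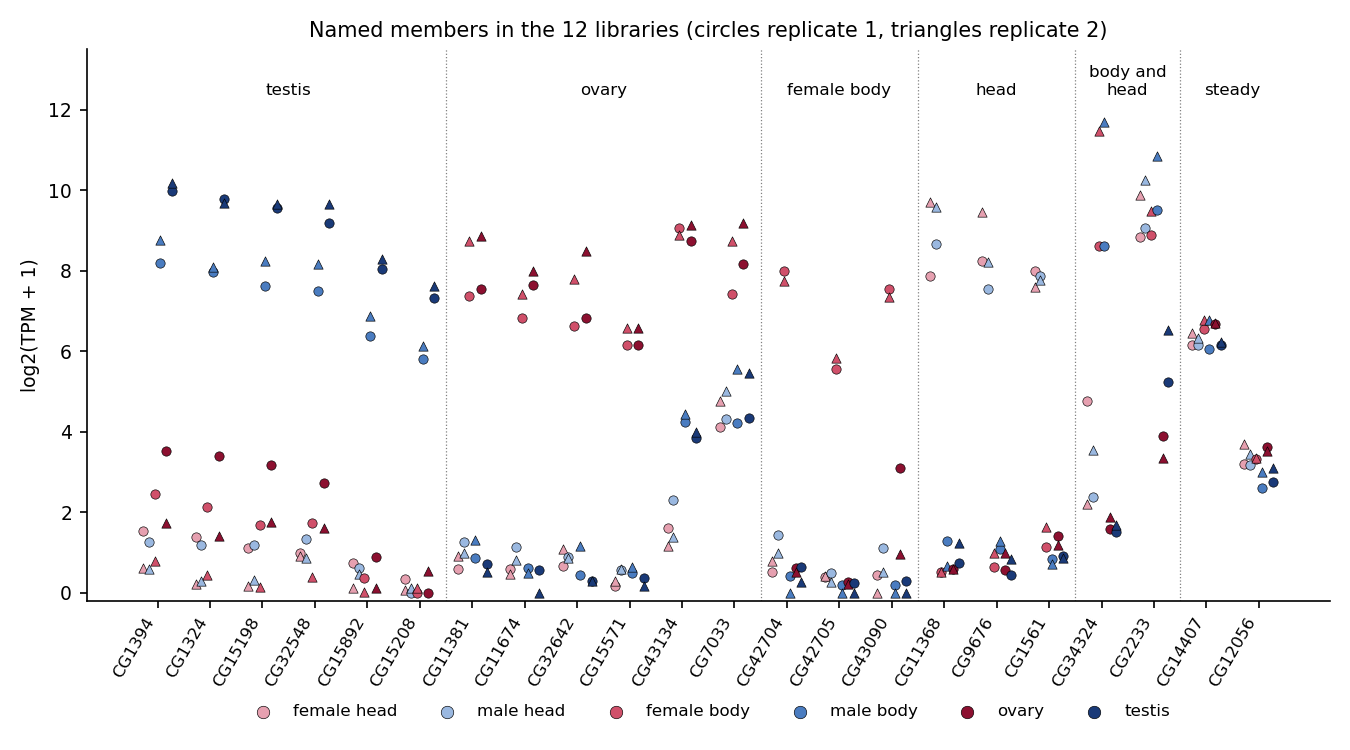
Levels of 22 of the named genes in the 12 libraries on the scale of log2(TPM + 1), grouped by where they lead; colours are the 6 groups, circles replicate 1 and triangles replicate 2. Genes of the testis are highest in testis and male body, genes of the ovary in ovary and female body, and CG42704, CG42705 and CG43090 in female body.

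Sex differences of the bodies largely ran with those of the gonads, and the cause was not tested. Between female and male bodies 189 unnamed X-linked genes (18.1%) were higher in females and 283 (27.1%) higher in males, against 17.3% and 25.1% of all genes tested. The unnamed autosomal genes stood at 13.8% and 32.9% and the named X-linked genes at 28.0% and 6.68%. Of the 331 testis genes 281 were also higher in male body, and of the 324 ovary genes 176 were also higher in female body, or 341 of 434 with the replicate number as a block. These were 84.9%, 54.3% and, with the block, 78.6%, near the 79.1%, 56.2% and 79.7% over all genes tested. Of the 283 genes higher in male body 2 were not higher in testis, against 128 of 3238 over all genes. Of the 189 higher in female body 13 were not higher in ovary, against 97 of 2235 over all genes. With the block these were 18 of 332 and 26 of 367, against 378 of 4048 and 242 of 4451 over all genes. The testis genes stood in male body at a median of 34.3% and 36.8% of their level in testis, and the spermatocyte and spermatid markers at 27.5% and 35.5%. The ovary genes stood in female body at 68.3% and 70.0% of their level in ovary, and summed markers of the ovary's follicle cells at 64.6% and 108.0%.

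With a block for the replicate number 367 genes (35.2%) were higher in female and 332 (31.8%) in male body. These shares were near the 34.6% and 31.4% of all genes with the block. Without the mitochondrial genes the counts were 309 and 347, and on the authors' FPKM 323 and 363. Shares over all genes were counted for the main fit and the block only. The median of ratios gave 193 and 528, so that 26.8% of calls were towards the female in place of 40.0%. The female count was 98 without female body replicate 2 and also 98 without male body replicate 1.

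Some genes were high in female body and low in ovary. CG42704 was measured at 254 and 214 TPM in female body, at 0.540 and 0.437 TPM in ovary and at no more than 1.69 TPM in any other library (7.66 ± 0.28 between bodies, adjusted p = 1.7e-06). Its neighbour CG42705 on the same strand had 46.1 and 55.6 TPM in female body and at most 0.392 TPM in the other 10 libraries. CG43090 had 185 and 161 TPM in female body and 7.53 and 0.952 TPM in ovary. CG42780 with 10.7 and 9.95 TPM and CG43255 with 12.9 and 8.17 TPM in female body stayed under 0.2 TPM in all other libraries. CG42240 was erratic, at 118 and 299 TPM in female body, 123 TPM in female head replicate 1 and 84.7 TPM in ovary replicate 1, and listed at 0 in the other 8 libraries. Its difference between bodies (7.56 ± 2.21, adjusted p = 0.02) was lost without female body replicate 2 or without either male body library. CG12081 was likewise listed at 0 everywhere except 28.4 TPM in ovary replicate 2.

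A single gene was called in opposite directions in gonads and bodies, or 5 with the replicate block, against 7 and 34 over all genes tested. CG1368 had 5.29 and 11.8 TPM in testis against 0.489 TPM and a listed 0 in ovary (−2.88 ± 0.57, adjusted p = 0.0016). In bodies it was higher in the female, at 28.2 and 79.9 TPM against 3.62 and 10.3 TPM (2.75 ± 0.57, adjusted p = 0.0029). In heads it stayed under 0.13 TPM. In the plot of both differences it is the only called testis gene well above 0 on the body axis.

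**Figure D4:**
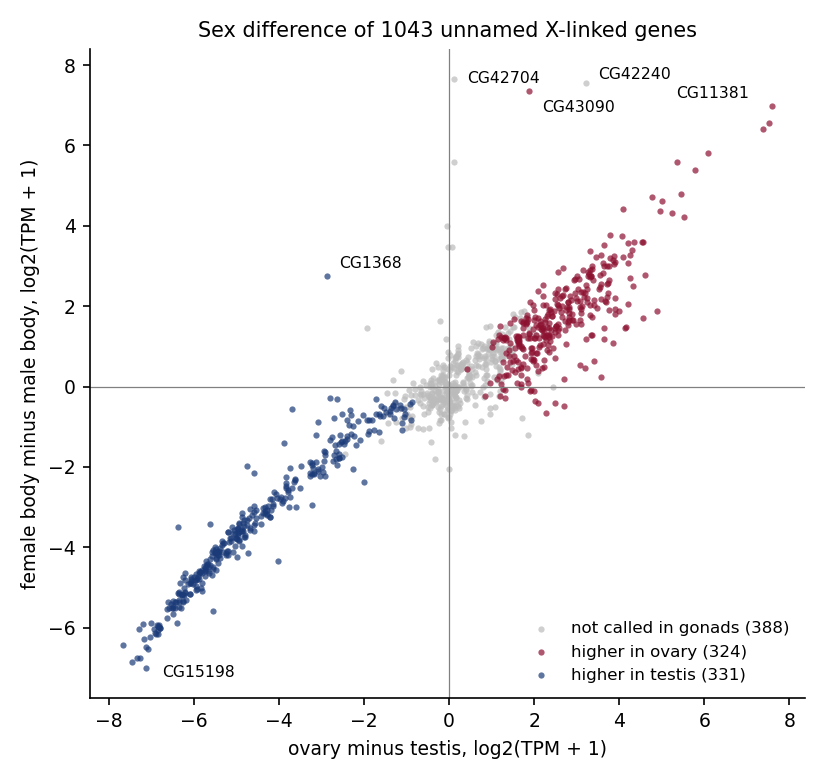
Log2 difference of ovary and testis (horizontal) against that of female and male body (vertical), on log2(TPM + 1), one point for each of the 1043 unnamed X-linked genes. Colours give the call between gonads (324 higher in ovary, 331 higher in testis, 388 not called); CG1368 lies at −2.88 and 2.75, and CG42704 at 0.12 and 7.66.

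Between head and body within a sex, 120 unnamed X-linked genes (11.5%) were higher in the head and 245 (23.5%) in the body of females, against 11.1% and 24.1% of all genes. In males 130 (12.5%) were higher in the head and 343 (32.9%) in the body, against 11.7% and 30.9%. Of the unnamed autosomal genes 40.5% were higher in male body than in male head, and 90 of the 898 named X-linked genes. These shares for the unnamed X-linked genes were near those of all genes. With the replicate block 38.3% were higher in female body than female head, against 39.8% of all genes. In males 22.9% were then higher in head than body, against 21.7% of all genes. The body count of females was 399 with the replicate block, and 147 both without female body replicate 2 and without female head replicate 1. The head count of males was 239 with the block, 241 on FPKM, 331 without the mitochondrial genes and 231 under the median of ratios. Head calls in females made up 32.9% of calls in the deposited TPM, 53.6% under the median of ratios and 44.0% without the mitochondrial genes, and in males 27.5%, 34.8% and 48.3%.

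A few genes were nearly confined to heads. CG11368 was measured at 232 and 832 TPM in female heads and at 402 and 762 TPM in male heads, and at no more than 1.45 TPM in the other 8 libraries. Head and body did not overlap in either sex (8.27 ± 0.59 in females, adjusted p = 5e-06, and 8.14 ± 0.59 in males, adjusted p = 1.7e-06). CG9676 had 185 to 705 TPM in heads and at most 1.44 TPM elsewhere. CG40485 had 97.9 to 153 TPM in heads and at most 0.883 TPM elsewhere. CG1561, now named pkm, had 193 to 255 TPM in heads and 0.626 to 2.07 TPM elsewhere, and overlaps nod. CG9686 had 189 to 233 TPM in heads, 6.67 to 19.7 TPM in bodies and at most 2.11 TPM in gonads.

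In bodies of both sexes CG34324 had the highest mean, at 387 and 2820 TPM in females and 388 and 3310 TPM in males, against 1.82 to 2.70 TPM in gonads and 3.59 to 26.0 TPM in heads. Its replicates differed more than its sexes, and it overlaps Neto. It led in replicate 2 only, since CG2233 was higher in replicate 1 of both sexes, at 475 and 730 TPM. CG2233 was high in heads (452 to 1210 TPM) and in bodies (475 to 1830 TPM) and lower in testis (36.6 and 91.2 TPM) and ovary (13.9 and 9.11 TPM).

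Against the head of the same sex, 285 unnamed X-linked genes (27.3%) were higher and 185 (17.7%) lower in ovary, with 28.5% and 19.1% over all genes. In testis 352 (33.7%) were higher and 267 (25.6%) lower than in male head, with 32.2% and 24.7% over all genes. The unnamed autosomal genes were higher in testis in 40.0% and the named X-linked genes in 10.6%. Of the 331 testis genes 292 were higher than both ovary and male head, and of the 324 ovary genes 196 were higher than both testis and female head, or 319 of 434 with the block. Without the block these were 88.2% and 60.5%, against 82.2% and 64.2% over all genes tested. With the block 41.3% of the unnamed X-linked genes were higher in ovary than in female head, against 42.8% of all genes. The ovary count over head was 431 with the block and 180 without female head replicate 1. Ovary calls were 60.6% of the calls in the deposited TPM, 40.7% under the median of ratios (220 higher and 320 lower) and 49.9% without the mitochondrial genes (270 and 271). Testis calls were 56.9%, 55.7% and 40.2%, with 500 genes lower in testis without the mitochondrial genes.

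The 190 genes with a later name allowed a few roles to be read. After results of these data were known, 52 of them were put into 5 groups by those names. Of the 190 genes 77 were called higher in ovary and 18 higher in testis, so later-named genes leaned to the ovary before any grouping. In the group called germline, 4 of 5 genes were higher in ovary than in testis and 4 higher in ovary than in female head. Of all genes 29.5% and 28.5% were called in these directions. The gene not called between gonads was CG2662, now Lint-O (1.84 ± 0.80, limma adjusted p = 0.071). The later annotation describes CG2662 by ovarian somatic cells, not by the germline. The median difference of the 5 genes between gonads was 3.31 against 0.07 for all genes. CG9634, now gone early, was the exception against the head. It had its highest mean in male head, 18.4 TPM, and was not called between ovary and female head (−0.17 ± 0.84). CG12200, now narya, encodes a RING protein of meiotic recombination, and had 20.1 and 31.5 TPM in ovary against 0.263 TPM and a listed 0 in testis. CG12721, now moonshiner, acts in transcription of piRNA clusters and had 29.5 and 25.5 TPM in ovary against 0.717 and 0.690 TPM in testis. CG14814, now Gcna, had 46.1 and 287 TPM against 6.92 and 16.4 TPM. With the replicate block all 5, CG2662 among them, were higher in ovary than in testis, against 41.0% of all genes.

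Of 9 genes named for the nervous system, 6 were higher in head than in body in each sex and 8 were lower in testis than in male head. Of all genes 11.1% in females and 11.7% in males were higher in head than in body, and 24.7% were lower in testis than in male head. The median difference of head and body was 3.10 in females and 3.18 in males, against −0.38 and −0.22 for all genes. CG42492, now OtopLa, a proton channel of acid taste, had 101 to 162 TPM in heads and at most 6.36 TPM elsewhere. CG8909, now Lrp4, a regulator of synapse number, had 14.3 to 27.4 TPM in heads and at most 1.35 TPM elsewhere. CG9657, now rumpel, a transporter of glia, had 13.4 to 17.1 TPM in heads and under 1 TPM elsewhere. CG7280, now shopper, a sulfite oxidase also described in glia, went the other way in females, with 6.67 and 7.18 TPM in head and 14.9 and 25.6 TPM in body.

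Of 17 genes of the respiratory chain and its assembly, 5 were higher in ovary and 1 higher in testis, and 6 were lower in testis than in male head, where 29.5%, 30.5% and 24.7% of all genes were called. With the block these counts were 10, 1 and 12, against 41.0%, 34.7% and 35.8% of all genes. CG3560, now UQCR-14, a subunit of complex III, had 290 to 397 TPM in heads, 186 and 123 TPM in ovary and 40.9 and 32.8 TPM in testis. The one gene of the testis was CG7349, now SdhBL, a paralog of the iron-sulfur subunit of succinate dehydrogenase. It had 221 and 325 TPM in testis against 2.29 and 0.609 TPM in ovary (−6.87 ± 0.46, adjusted p = 5.2e-07). Of 10 genes of glycosylation and folding in the endoplasmic reticulum, 4 were higher in ovary than in testis and 0 lower. With the block they were 8 and 0, beside the same shares of all genes. Of the 190 genes with a later name 77 were called higher in ovary. CG1518, now Stt3A, a catalytic subunit of oligosaccharyltransferase, had 68.2 and 103 TPM in ovary against 4.84 and 12 TPM in testis. Of 11 ubiquitin ligases, proteases and related enzymes 2 were higher in ovary, or 6 with the block, and 0 in testis, or 2 with the block (29.5% and 30.5% of all genes, or 41.0% and 34.7% with the block).

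Neighbouring genes could share a call. X-linked genes with a mean of at least 1 TPM were taken in order of their starts, and genes under that level were skipped. There were 14 runs of 3 or more unnamed genes higher in ovary and 21 runs higher in testis. Runs were not counted for other genes, and whether calls cluster was not tested. The longest testis run had 7 genes from CG2750 to CG2574 (chrX:12107200-12409825, dm6). CG32655 led it with 528 and 583 TPM in testis against 5.78 and 1.19 TPM in ovary (−7.17 ± 0.59, adjusted p = 2.3e-06). CG2574 followed with 156 and 140 TPM, CG2750 had 46.4 and 115 TPM and CG45603 had 86.2 and 65.1 TPM, and CG1924 was lowest with 9.62 and 26.9 TPM. CG2750, CG1924, CG32655 and CG45603 lie within or across the teneurin gene Ten-a.

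In ovary 2 runs of 6 genes were the longest. From CG11380 to CG11403 (chrX:1191308-1239884) the run held CG11381 beside weaker genes: CG11398 had 13.1 and 23.4 TPM in ovary against 0.593 and 0.971 TPM in testis (3.39 ± 0.35, adjusted p = 1.5e-05). CG11403 had 7.55 and 22.7 TPM against 0.317 and 0.643 TPM. CG11382 had 10.7 and 17.1 TPM in ovary and was listed at 0 in both testis libraries. CG11380 had 0.69 and 1.23 TPM in ovary and was listed at 0 in testis, and its highest level was in female heads, at 3.85 and 6.26 TPM. The second run, from CG34422 to CG7326 (chrX:18843663-18863776), was the more compact. Its strongest member was CG7280, with 22.4 and 32.2 TPM in ovary against 1.35 and 2.29 TPM in testis (3.33 ± 0.45, adjusted p = 0.00012). CG7326 had 9.71 and 52.0 TPM against 0.952 and 2.91 TPM, and CG7288, now Usp39, had 23.0 and 62.7 TPM against 4.22 and 11.7 TPM. CG34422, now hat-trick, was the weakest (1.64 ± 0.62, adjusted p = 0.044), and its call was lost in 9 of the alternative fits. The calls of CG11380, CG3638, CG7288 and CG7326 were lost without ovary replicate 2 and without testis replicate 1, and that of CG11380 also without testis replicate 2. CG34422 overlaps CG7280, and CG32544 overlaps CG7326.

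Genes called in the 2 gonads also differed in gene length, for which TPM is itself corrected, and in later naming. Testis genes had a median length of 1307 bases from start to end, ovary genes 2327 bases, and genes called in neither 2779 bases. Of the testis genes 5.44% (18 of 331) had received a name in the later annotation, against 23.8% of the ovary genes and 24.5% of those in neither. The share that overlapped another gene was alike, 46.5% and 49.4%. Along the chromosome the share of testis genes lay between 28.2% and 34.9% in the blocks of 4 Mb up to 20 Mb, and was 44.4% (36 of 81) in the last block from 20 to 24 Mb. No test was made on these features. They were counted for the unnamed X-linked genes only, so whether other ovary and testis genes share them is not known.

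Promoters of the 2 classes differed in their letters, searched on both strands of the window shown above. TATCGATA was in 18.5% of the ovary promoters, 3.93% of the testis promoters and 12.9% of those called in neither, and in 8.75% of 10126 promoters of tested genes on X, 2L, 3L and 3R. On the autosomes the unnamed genes of the ovary held it in 13.2% and those of the testis in 2.18%. GGTCACAC was in 12% of the ovary and 1.21% of the testis promoters on X (6.82% of all), and in 10.3% and 1.32% on the autosomes. CAGCTG was in 16.4% and 8.16% (13.2% of all). On the autosomes it was in 23.2% and 8.86%. TATAAA was in 28.1% and 22.1% (28.4% of all) on X and in 29.6% and 32.7% on the autosomes, the other direction. GAGAGAGA was in 1 of 324 ovary and 2 of 331 testis promoters on X (1.80% of all), too few to give a direction. On the autosomes it was in 11 of 881 and 9 of 1512. TCAGT, a core of the initiator, went the other way, in 30.9% of the ovary and 48.3% of the testis promoters of X (38.1% of all), and in 33.5% and 39.0% of those of the autosomes. Matches of different letters could overlap and a promoter with several counted for each. A match is a description of these letters and not a bound site, and the starts are annotated ones. Of the 6 leading ovary genes named above none held TATCGATA or GGTCACAC in this window.

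**Figure D5:**
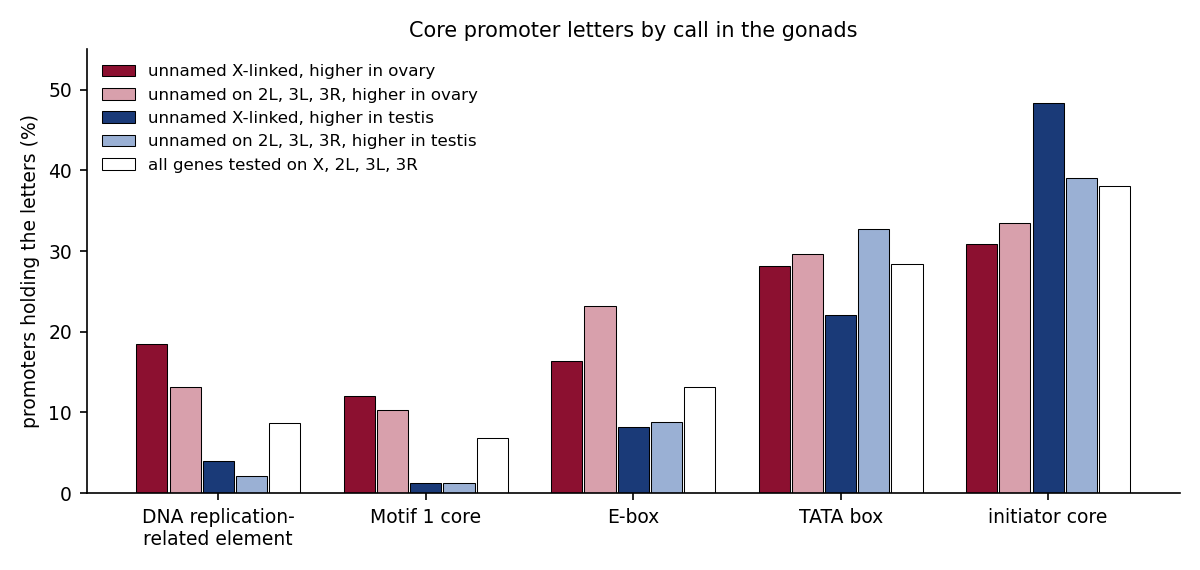
Percentage of promoters (150 bases before to 30 after the annotated start) that hold each set of letters on either strand, for unnamed genes higher in ovary or testis on X and on 2L, 3L and 3R, and for all tested genes of these arms. TATCGATA (DNA replication-related element) stands at 18.5% in ovary genes and 3.93% in testis genes of X, TCAGT (initiator core) at 30.9% and 48.3%.

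Some unnamed genes hardly varied. CG12056 ranged from 5.04 to 11.9 TPM over the 12 libraries, and CG14407, now Grx5, a mitochondrial glutaredoxin, ranged from 64.9 to 109 TPM. CG9240 ranged from 12.5 to 29.6 TPM and CG2909 from 1.87 to 5.32 TPM. None of the 4 passed the test in any of the 7 comparisons, but with the replicate block CG12056 passed between ovary and testis (0.64, adjusted p = 0.027).

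The factors of dosage compensation were measured in the same libraries. Of 8 genes (msl-1, msl-2, msl-3, mle, mof, roX1, roX2 and Clamp) only the roX genes were called between heads, both higher in males. The same 2 were called higher in male body and in testis, and msl-1 higher in female body and in ovary. With the replicate block 4 of the 8 were higher in female body and 5 in ovary, against 34.6% and 41.0% of all genes. The other way, 3 were then higher in male body and 2 in testis, against 31.4% and 34.7% of all genes. The gene added in male body was msl-2, at 2.51 and 8.02 TPM against 1.23 and 2.85 TPM in female body (limma with the block, adjusted p = 0.0056). In testis roX1 had 16.6 and 43.0 TPM and roX2 4.0 and 3.06 TPM, against 313 and 589 TPM and 47.8 and 42.1 TPM in male head. The testis sample held somatic tissue of the tract beside the germline, and these levels were not assigned to either.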

How the data were processed

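Polyadenylated RNA of 12 libraries (6 groups, 2 libraries each) was analysed, and 25 of the 37 samples of the series were not used here. The authors trimmed reads with cutadapt, mapped them to dm6 with STAR 2.6.1a and deposited 1 gene table for each library with TPM and FPKM; StringTie 2.0 and Cufflinks are listed in the submitters' processing notes. The deposited TPM, which add up to 1000000 for a library, hold no counts of reads, so the depth behind a gene is unknown and precision rests on the replicates. The FPKM deposited by the authors served as an alternative only.

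Genes with a mean of at least 1 TPM were fitted on log2(TPM + 1) with limma 3.58.1 in R 4.3.3 (1 mean for each group, trended variance, two-sided tests). P-values were adjusted by Benjamini-Hochberg over all 12882 genes of a comparison, with 0.05 as threshold. Standard errors follow ± beside log2 differences. The fit was tested on simulated data with independent noise in each library. The simulation held no deviations shared by same-numbered libraries, which are described below, so it does not bear on them. Python 3.11.15 with numpy 2.4.6, pandas 2.3.3 and matplotlib 3.10.9 did the rest. Strand was not stated, and 495 members (47.5%) overlap another gene.

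Members, lists and tests were chosen with earlier results of these data known. Genes were named by rule: the largest non-overlapping calls (6 a direction between sexes, 3 between tissues), the 3 highest of each group, those next to the threshold on level, opposite calls, the longest runs, the 4 steadiest and those with over 80% of their summed group means in 1 group. Genes of the groups made from later names were chosen after their values were seen.

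Replicate numbers from the labels were checked as pairs. Deviations of same-numbered libraries from their group means correlated at 0.345 to 0.769 (median 0.473) in all 15 pairs. The numbers were thus taken to pair the libraries, but the main fit leaves this pairing out. Counts, standard errors and p-values come from the main fit unless the block or another alternative is named. Alternatives were a pseudocount of 0.1, no filter or a mean of at least 5 TPM, FPKM, scaling by the median of ratios over 6381 genes, TPM without mitochondrial genes, only the 4 libraries compared, the replicate number as a block, and each library left out.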

Additional observations from a re-analysis of the deposited data

Results flagged for a closer look

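In 39 of the 60 named genes the difference of ovary and testis was itself different from that of female and male heads (limma, adjusted p from 4.2e-06 to 0.049). Over all 12882 genes tested this held for 21.7% towards the ovary and 26.8% towards the testis, so it is common. Each value is the difference of both log2 differences on log2(TPM + 1), positive where the gonads lean more to the female than the heads do. Below 0 were CG1394 (−7.6), CG15892 (−7.57), CG1324 (−7.39), CG15208 (−7.34), CG12470 (−7.25), CG1999 (−7.18), CG32655 (−7.16), CG15577 (−7.15), CG32548 (−7.1), CG15198 (−7.01), CG2574 (−6.36), CG45603 (−5.87), CG2750 (−5.48), CG32651 (−5.46), CG2577 (−4.97), CG10970 (−4.85), CG1924 (−3.98), CG1368 (−2.9), CG2111 (−2.23), CG1494 (−2.08). Above 0 were CG32553 (1.54), CG45089 (1.65), CG3560 (1.88), CG32544 (2.46), CG43090 (2.47), CG11398 (3.24), CG11403 (3.44), CG7326 (3.44), CG7322 (3.51), CG7280 (3.85), CG11382 (3.92), CG7033 (4.01), CG43134 (5.47), CG4586 (5.66), CG6927 (5.68), CG15571 (6.45), CG32642 (7.38), CG11381 (7.96), CG11674 (7.97). Of these 12 were named for the size of their gonad difference and others for runs of gonad calls, so the values describe them and are no independent support. CG32553 came from the heads, its gonads being listed at 0, and its value is the head difference with the sign turned.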

How the results depend on the processing

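Among 69 results for single named genes no called direction reversed under the alternatives run, and 62 kept their side of the threshold in every one. CG11380, CG32553, CG34422, CG3638, CG42240, CG7288 and CG7326 lost theirs in at least 1. The lean of all calls did turn in some comparisons. Calls towards the ovary over female head went from 60.6% to 40.7% under the median of ratios. Calls towards the testis over male head went from 56.9% to 40.2% without mitochondrial genes. Calls towards the female body over male body went from 40.0% to 52.5% with the replicate block. Counts that moved by over 1.5 times are given here, and the cause was not tested. A block for the replicate number gave 367 higher in female than male body and 399 higher in female body than female head. It gave 239 higher in male head than male body and 431 higher in ovary than female head. Towards the ovary 411 differed more in gonads than in heads. In this order the shares were 35.2%, 38.3%, 22.9%, 41.3% and 39.4%. Over all genes they were 34.6%, 39.8%, 21.7%, 42.8% and 39.1%. The block changed none of the 69 results. Over all 420 tests of the 60 named genes in the 7 comparisons it added 18 calls and lost 0. Scaling by the median of ratios gave 1 gene higher in female head, 528 higher in male body, 267 and 231 higher in female and male head than body, 320 lower in ovary than head, and 467 more towards the testis in gonads than in heads. Without mitochondrial genes there was 1 higher in female head, 309 higher in female body, 200 and 331 higher in female and male head than body, 500 lower in testis than head, and 388 more towards the ovary. FPKM gave 1 higher in female head, 323 higher in female body and 241 higher in male head than body. With a mean of at least 5 TPM 86 were higher in male head than body and 0 in male than female head, and 0 also with a pseudocount of 0.1 or only the 4 libraries.

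The gap of X-linked to autosomal unnamed genes kept its sign in these settings, except in female body, where it was −0.01 without replicate 2. With all genes above 0 it was 0.34 in female head, 0.47 in male head, 0.52 in female body, −0.30 in male body and −0.31 in testis. With at least 5 TPM it was 0.18 and 0.15 in female and male head, −0.52 in male body and −0.70 in testis. With a pseudocount of 0.1 it was 0.28 in female head and −0.62 in testis, and in female head 0.22 with FPKM and 0.25 without mitochondrial genes. Leaving out 1 library gave 0 to 1 and 0 to 2 calls between heads (higher in females, then males), 98 to 240 higher in female body, 194 to 349 higher in ovary than testis, 147 to 268 higher in female body than head, 180 to 313 higher in ovary than head, and 149 to 285 more towards the ovary in gonads than in heads. The gap then ran from 0.22 to 0.24 and 0.20 to 0.31 in female and male head, −0.01 to 0.28 in female body, −0.47 to −0.40 in male body, 0.41 to 1.35 in ovary and −0.59 to −0.54 in testis. The deposited TPM hold no read counts, so no limit from depth can be given for genes listed at 0.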
